A study of Brachypodium distachyon with 8 samples.

Results

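The 3' UTR loci described here hold ranks 11 to 100 when the small RNA reads of each locus are summed over all lengths and over 8 libraries from Brachypodium distachyon leaves. They are 90 of 30815 transcript identifiers, come from 66 genes, and ranged from 6405 to 223929 reads each. These loci were chosen by their total reads, so their levels are given as a description and no test is made of them. Read length was not used in the choice. As 4 of the 8 libraries were from heated plants, a sum over libraries favours loci with many reads under heat.

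Small RNAs were sequenced from leaves of the inbred line Bd21, a model grass, to ask how small RNA populations differ under abiotic stress. All groups were this wild type, grown at 22 °C, and each condition was 1 library: unstressed plants, soil soaked with 300 mM NaCl for 48 h, cold at 4 °C for 6 h or 24 h, heat at 42 °C in air for 1 h or 3 h, and heat at 42 °C by immersion in water for 1 h or 3 h. With 1 library per condition every difference is between libraries, and all intervals are exact (Clopper-Pearson) 95% intervals that cover counting error only. The libraries held 1730029 (salt) to 4622303 (heat in air, 1 h) reads at 3' UTRs. The identifiers could not be joined to gene names, so no functions are given and leaf marker genes could not be looked up.

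In plants, Dicer-like enzymes cut small RNAs to fixed sizes. MicroRNAs and many secondary small interfering RNAs are mostly 21 or 22 nt and act on messenger RNAs, whereas 24 nt small interfering RNAs direct DNA methylation at repeats and transposons. RNA that is broken down without such an enzyme leaves fragments of many lengths. A read at a 3' UTR can also come from another copy of its sequence or from the opposite strand, and the use of strand in the counting is not given in the sources used here.

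The 90 loci together held 10.1% of all 3' UTR reads. By library the share was 4.68% without stress, 15.6% under salt, 9.11% (6 h) and 13.0% (24 h) in cold, 9.69% (1 h) and 11.8% (3 h) under heat in air, and 9.63% (1 h) and 10.7% (3 h) under heat in water. Below, a pair of values for cold, heat in air or heat in water gives the shorter time first. The unstressed library had the lowest share and the salt library the highest, with counting intervals no wider than 0.0541 points either side. The unstressed library went from lowest to highest when the 10 loci ranked above were left out of the library total; those held 89.9% of unstressed reads and 38.9% to 71.3% of the others. On that basis the 90 loci held 46.4% of the remaining unstressed reads, the highest share, and 21.295% after 24 h of cold, the lowest. Fewer cells making a small RNA and fewer copies per cell cannot be told apart in whole leaves.

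The read lengths split these loci into 3 kinds, with boundaries set after the lengths were seen. In 45 loci from 31 genes at least 50% of reads had a single length, called sharp here. In 30 loci from 26 genes no length reached 20%, called broad, and 15 loci from 9 genes lay between. The sharp loci were led by 24 nt in 19 cases, by 20 to 23 nt in 14, by 15 nt in 10 and by 35 nt in 2. Spread was measured as the effective number of lengths, the number of equally common lengths that would be as diverse. Its median was 2.96 in the sharp loci, 4.71 in the intermediate and 19.9 in the broad loci, out of 27 lengths seen. No broad locus was led by 20 to 23 nt.

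**Figure D1:**
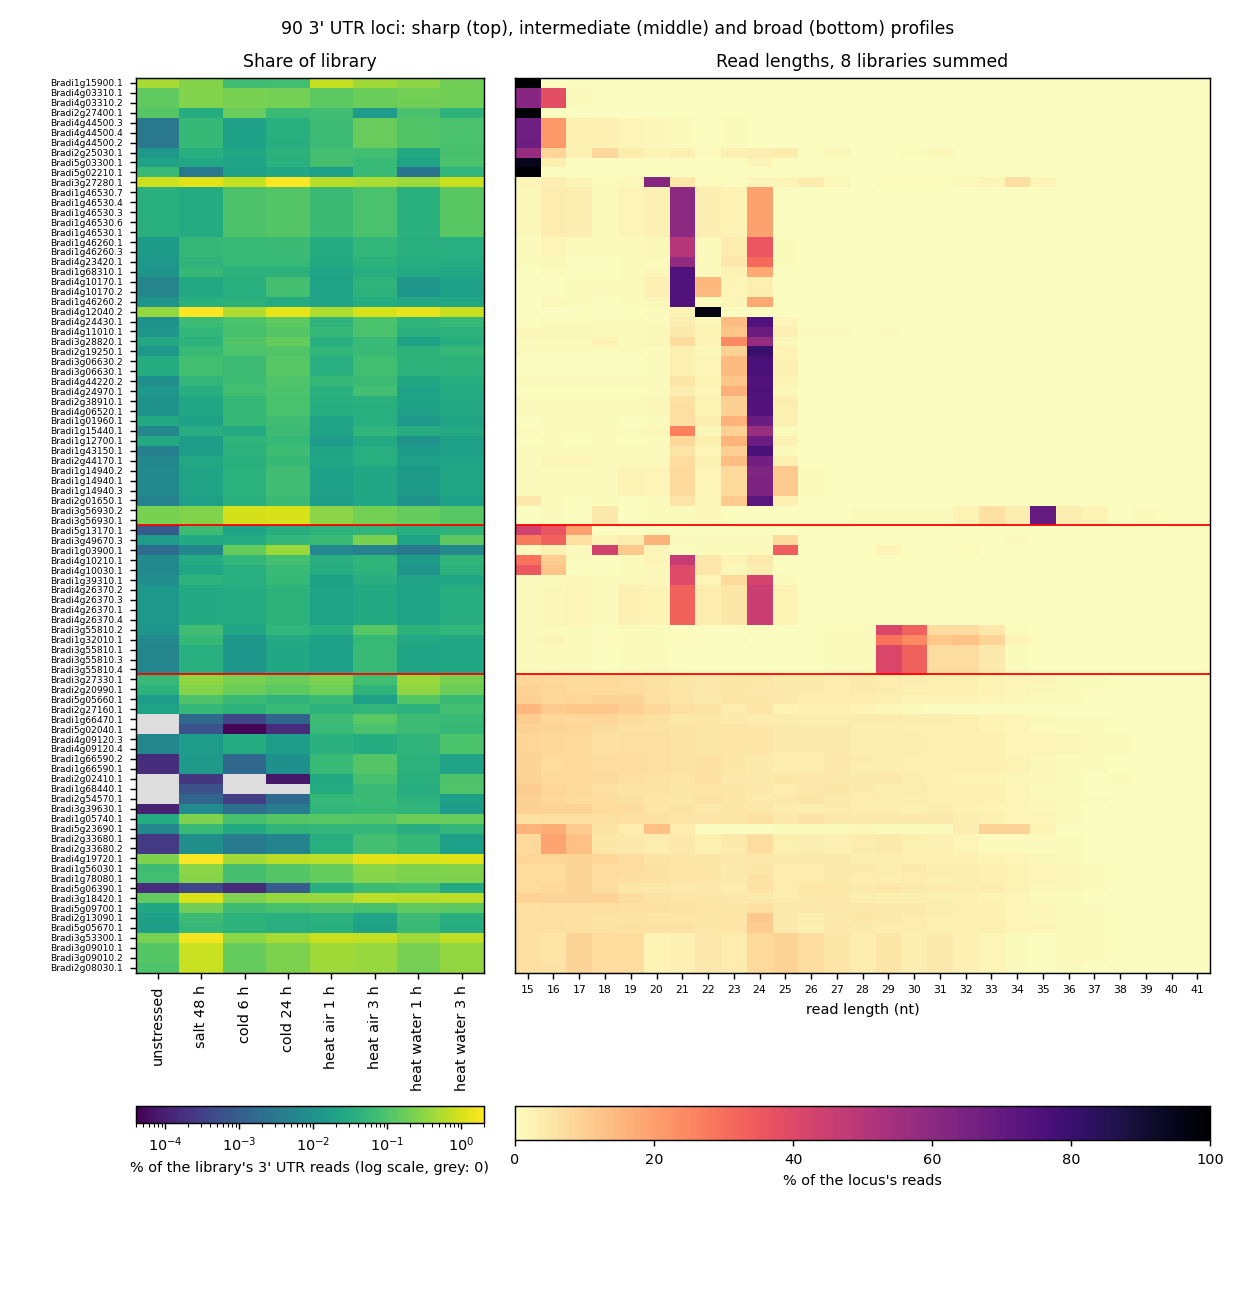
The left panel shows each of the 90 loci as a percent of the 3' UTR reads in each of 8 libraries (log colour scale, grey for 0 reads), and the right panel shows the percent of its reads at each length from 15 to 41 nt, all libraries summed. Red lines divide the 45 sharp loci at the top, the 15 intermediate loci and the 30 broad loci, whose reads spread over most lengths.

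Compared with the 900 loci ranked next, the 90 loci were less often led by 24 nt, at 28.9% against 73.6% of loci. They were more often led by 15 nt, at 27.8% against 8.56%, and by 25 to 41 nt, at 12.2% against 2.22%. Broad profiles made up 33.3% of the 90 and 14.9% of the 900. Of all reads at the 90 loci, 24 nt made up 7.44% without stress, 8.47% under salt, 13.7% and 14.2% in cold, and 7.66% to 10.9% in the heat libraries. Both cold libraries were above the other 6. The same held at all loci ranked below the 90, so it was not particular to these loci. There the 24 nt share was 50.7% and 51.2% in cold and 33.9% to 41.7% in the other 6.

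Bradi4g12040.2, ranked 11, was the sharpest locus led by a length typical of Dicer-like products, with 96.7% of its 223929 reads at 22 nt. It had 13232 unstressed reads, 32851 under salt, 23508 and 32731 in cold, 25231 and 41321 under heat in air, and 26154 and 28901 under heat in water. The share at 22 nt was between 96.1% and 96.9% in all 8 libraries, while the locus went from 0.363% of unstressed reads to 1.90% of salt reads. Its level therefore differed between libraries by share while its length profile hardly moved. By TMM-scaled reads, which are corrected for composition, the locus ran from 3508 (6 h of cold) to 13647 (1 h of heat in water). On that scale salt, at 10190, was below unstressed, at 13232. The locus ranked 10, Bradi4g12040.1, had the same count at every length in every library, so the boundary at rank 10 cut through an identical pair. At the other end Bradi2g01650.1, ranked 100, had 6405 reads, and Bradi4g38360.1, ranked next, had 6252, both led by 24 nt.

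Bradi3g27280.1, ranked 13, was the only locus of the 90 led by 20 nt. Its 20 nt share was 79.2% in the unstressed library (95% interval 78.7 to 79.6), 62.4% under salt, 59.8% and 66.8% in cold, 39.1% and 57.6% under heat in air, and 46.1% and 65.0% under heat in water. The lowest value, after 1 h of heat in air, had an interval of 38.5 to 39.7. The 20 nt length led everywhere, and in both kinds of heat the 1 h library was lower than the 3 h library. Of the library, the locus made up 0.408% (heat in water, 1 h) to 1.91% (24 h of cold). By TMM-scaled reads, which are corrected for composition, the unstressed library was highest instead. It had 31507, or 44.8% of the scaled reads, against 3074 to 7548 in the stressed libraries.

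The 14 loci led by 21 nt included 5 identifiers of the gene Bradi1g46530, which shared nearly all reads. For its first identifier, Bradi1g46530.7, the 21 nt share was 55.0% to 62.1% in the 8 libraries, with a second, smaller group of 24 nt reads. Its ratio of 24 nt over 21 nt was 0.330 without stress, 0.460 under salt, 0.397 and 0.419 in cold, 0.262 and 0.333 under heat in air, and 0.334 and 0.203 under heat in water. The ratio was lowest after 3 h of heat in water, where its interval of 0.184 to 0.222 lay below those of the other 7 libraries.

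The loci led by 24 nt numbered 26, from 20 genes, and 24 of them had their highest share among the stressed libraries after 24 h of cold. By total reads, loci in general were also highest in that library. The median log2 ratio of all tested loci to unstressed was 3.22 there and 1.91 to 2.84 in the other stressed libraries. By TMM-scaled reads, which are corrected for composition as described in the processing notes, only 9 of the 26 had that library highest and 8 had 6 h of cold. Bradi4g24430.1 was the most abundant of them, with 358 reads in the unstressed library, 1136 under salt, 3928 and 3382 in cold, 2117 and 3699 under heat in air, and 917 and 1946 under heat in water. Between 61.2% and 81.0% of these were 24 nt. After TMM scaling its level ran only from 352 (salt) to 586 (6 h of cold), and it was among the 3 most even of the 90 loci over libraries, with Bradi2g44170.1 and Bradi2g19250.1. All 3 were sharp 24 nt loci.

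Summed over the 19 sharp 24 nt loci, the share of the library was 0.270% unstressed, 0.714% under salt, 1.14% and 1.73% in cold, 0.595% and 0.959% under heat in air, and 0.467% and 0.592% under heat in water. Both cold libraries stood above the 5 heat and salt libraries. The TMM-scaled sums gave the same order for cold against heat and salt, with 7103 and 6842 in cold and 3833 to 5907 in the other 5. The unstressed library, lowest by share, was highest by scaled reads at 9851. Locus by locus, both cold libraries lay above all 5 heat and salt libraries in 14 of the 19 by share, from 12 of 16 genes. Of all 18191 loci with at least 40 reads, 21% showed this. By TMM the count was 11 of 19, from 9 genes, against 12% of all loci tested. Scaling by 2 other methods (medians of ratios, and totals outside the 100 most abundant loci) also gave 11, against 11.1% and 12%. The 565 sharp 24 nt loci ranked among the next 900 showed this in 58.6% by share and 40% by TMM, so the pattern was not confined to the most abundant loci.

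The broad loci went the other way. Over the 30 of them the summed share was 1.36% unstressed, 9.10% under salt, 2.50% and 3.24% in cold, 4.94% and 5.84% under heat in air, and 5.24% and 5.70% under heat in water. By share salt was highest, and both cold libraries were below all heat and salt libraries. By TMM-scaled reads cold gave 15580 and 12838 and the other stressed libraries 35973 to 53147. On that scale 1 h of heat in water was highest, and the unstressed library, at 49571, lay just above salt, at 48853. Both cold libraries lay below all 5 others in 14 of the 30 loci by share, from 12 of 26 genes, against 4.78% of all loci tested. By TMM they did so in 22 of the 30, from 19 genes, against 14.8%. The same 2 other scalings also gave 22, against 15.5% and 14.7%. These 30 include 11 loci that were picked below for being higher under heat than under cold or salt, and without them the counts were 5 of 19 (26.3%) by share and 12 of 19 (63.2%) by TMM. Among the 134 broad loci ranked among the next 900 the shares were 25.4% and 42.5%. No loci higher under heat were removed from the 134, so the matching values are those of all 30, 46.7% and 73.3%. The length classes come from reads summed over the same libraries, so they are not independent of these levels.

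**Figure D2:**
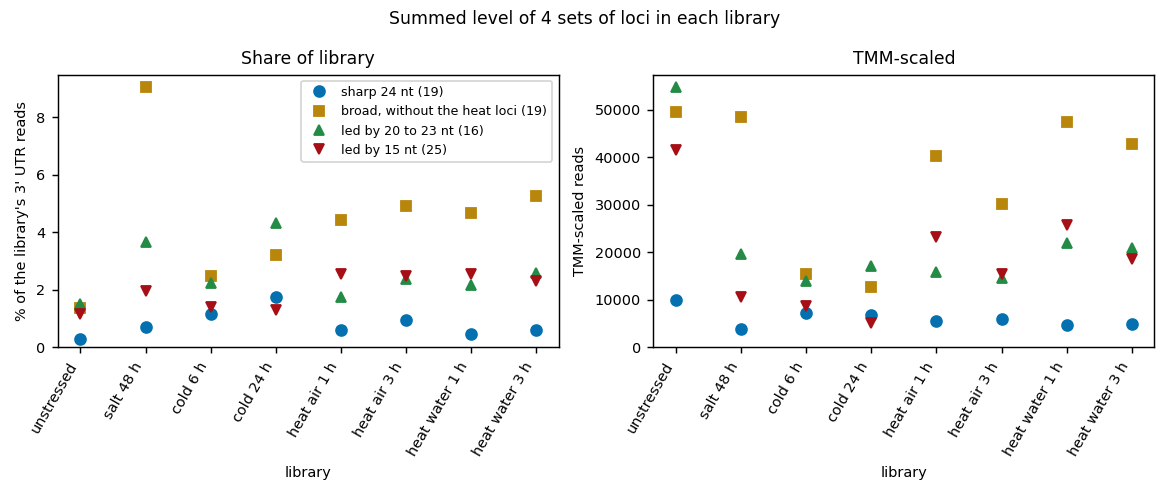
Summed level in each of 8 libraries of the 19 sharp 24 nt loci, the 19 broad loci that remain without the 11 loci higher under heat, the 16 loci led by 20 to 23 nt and the 25 loci led by 15 nt, as percent of 3' UTR reads (left) and as TMM-scaled reads (right). Some loci led by 15 nt are also broad. Among the stressed libraries the 24 nt set is highest in cold and the broad set lowest in cold on both scales, while the place of the unstressed library turns with the scale.

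The most abundant broad locus, Bradi4g19720.1, ranked 12, had 9066 reads in the unstressed library, 32868 under salt, 18284 and 16251 in cold, 31427 and 49468 under heat in air, and 21005 and 40813 under heat in water. Its commonest length varied among 15, 16, 17 and 18 nt and took 7.51% to 10.2% of reads. Bradi3g18420.1, ranked 15, had a similar pattern of counts over lengths and libraries at a lower level, with 124594 reads in all. Bradi3g53300.1, ranked 14, had 163515 reads, with 25 nt commonest overall at 9.07% and commonest lengths of 15 to 36 nt in single libraries. It made up 0.231% of the unstressed library and 1.63% of the salt library, but its TMM-scaled reads were close, at 8396 and 8728.

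A set of 11 broad loci from 9 genes was higher under heat than under cold or salt. In each of the 12 pairs of a heat library with a cold or salt library, the whole interval of the ratio of TMM-scaled reads lay above 2-fold. With scaling by total reads, or with a 4-fold limit, 6 loci met this rule in place of 11. The 11 were 12.2% of the 90 loci, against 0.572% of all loci tested and 2.67% of the next 900. No locus of the 90 was lower in the same way, against 0.022% of all tested. With no demand on the size of the gap, all heat libraries lay above all cold and salt libraries in 19 of the 90 by TMM, against 5.99% of all tested, and in 14 by share, against 2.29%. They lay below in 1 by TMM, against 4.03%, and in 8 by share, against 17.2%. Together the 11 had 88085 reads in the 4 heat libraries, 2440 in the cold and salt libraries and 40 in the unstressed library. In these sums, reads shared by identifiers of the same gene are counted at each. Since the choice by total reads favours heat, a locus could reach rank 100 on heat reads alone, and the count describes these loci without supporting a wider statement.

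Bradi2g02410.1, ranked 72, was the furthest apart, with 0 reads in the unstressed library, 4 under salt, 0 and 2 in cold, 1341 and 3433 under heat in air, and 690 and 3366 under heat in water. All heat libraries were far above the rest, and the lowest of them was 213-fold above the highest cold or salt library in scaled reads. Bradi5g02040.1, ranked 63, had 0 reads in the unstressed library, 11 under salt, 2 and 4 in cold, 2728 and 3601 under heat in air, and 1317 and 1890 under heat in water, a lowest ratio of 130-fold. The floor of counts put in place of 0 reads was 8.24e-05% of the unstressed library. It is a fixed setting and not a confidence limit. Over the 11 loci the lowest ratio ran from 2.35-fold to 213-fold.

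With all libraries summed, the fragments at these 11 loci had no dominant length. Their effective number of lengths was 16.4 to 20.9, and the commonest length held 8.79% to 19.1% of a locus's reads. In the heat libraries 33.3% to 43.2% of their summed reads were 15 to 19 nt, 30.9% to 41.03% were 25 to 41 nt, and 4.33% to 4.78% were 24 nt. In the cold libraries, where they had 550 and 917 reads in all, 24 nt made up 27.3% and 15.9%. Most of the cold 24 nt reads came from the 2 identical identifiers of Bradi2g33680. Over the other 9 loci 24 nt made up 5.56% (3.07 to 9.15) and 5.19% (3.62 to 7.18) in cold, of 252 and 655 reads, and 4.06% to 4.56% under heat. These 9 include both identifiers of Bradi1g66590, whose counts matched to 99.8%. Shared reads were thus counted at each, and the intervals are too narrow. At these depths no difference between cold and heat was detectable over the 9 loci. The 11 loci made up 0.518% and 0.930% of the library in air and 0.564% and 0.454% in water.

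**Figure D3:**
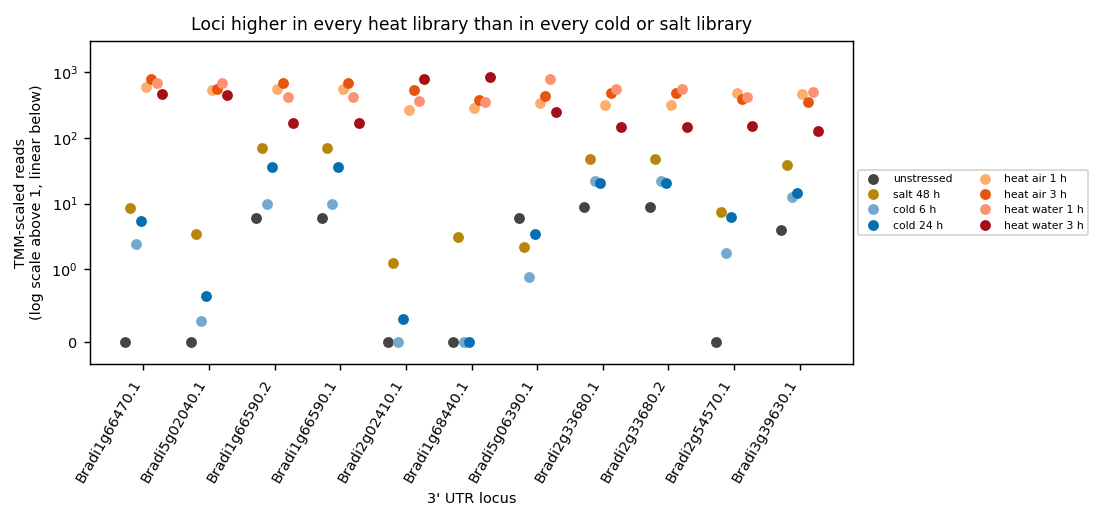
TMM-scaled reads (axis logarithmic above 1 and linear below) of the 11 loci higher in every heat library than in every cold or salt library, 1 point per library. The 4 heat libraries of a locus sit above its cold, salt and unstressed points, with the narrowest gap at the 2 identifiers of Bradi1g66590.

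Against the unstressed library the direction depended on the scaling. After TMM scaling, where the median log2 ratio of all tested loci was 0.01 to 0.08 in the 7 stressed libraries, the median of the 85 loci with reads in both libraries was -0.27 (heat in air, 1 h) to -1.24 (24 h of cold). Scaled by total reads, the medians were 1.33 to 1.97 for these loci and 1.91 to 3.22 for all tested. In each stressed library the median of these loci was below that of all loci tested. Scaling shifts every locus of a library by the same amount, so this gap is the same on both scales by construction. A locus was called where the whole interval lay beyond 2-fold, at both times for cold and heat. Deep loci are called more easily than shallow ones, so the share called among the 900 loci ranked next is given too.

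Under cold 34 of the 90 loci, from 24 genes, were called lower and 2 higher, against 2.19% and 0.704% of all tested and 6.22% and 4% of the next 900. By total reads these became 2 lower and 56 higher, or 96.6% higher among those called in place of 5.56%. Bradi1g15900.1, with 99.7% of its reads at 15 nt, was lower on both scales. It had 17427 reads in the unstressed library and 2986 and 1866 in cold, which is 39.1-fold lower (37.6 to 40.7) and 58.9-fold lower (56.2 to 61.8) after TMM scaling. Its share of the library went from 0.478% to 0.0715% and 0.0747%. Bradi5g02210.1, 99.6% at 15 nt, was 17.6-fold (16.3 to 19.1) and 21.8-fold (19.9 to 23.8) lower in scaled reads, and 0.0603% of unstressed reads against 0.0200% and 0.0255%.

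The 2 loci called higher in cold were Bradi1g03900.1 and Bradi5g13170.1. Bradi1g03900.1 had 67 reads in the unstressed library, 100 under salt, 6347 and 9657 in cold, 272 and 199 under heat in air, and 60 and 228 under heat in water. It was high in the cold libraries and low elsewhere, at 14.1-fold (11.1 to 18.3) and 22.9-fold (17.98 to 29.5) the unstressed level in scaled reads. Its reads were 18 nt and 25 nt fragments. Bradi5g13170.1 had 32 reads in the unstressed library, 1148 under salt, 886 and 828 in cold, 2026 and 1947 under heat in air, and 714 and 1602 under heat in water, and so was low in the unstressed library and not high in cold alone. In scaled reads it was 4.13-fold (2.91 to 6.08) and 4.10-fold (2.88 to 6.04) higher in cold.

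Under heat in air 15 loci from 11 genes were called higher and 23 from 13 genes lower, against 1.7% and 1.56% of all tested and 7.56% and 4.78% of the next 900. Under heat in water 15 were higher and 13 lower, against 1.7% and 1.51% of all tested and 5.22% and 6.67% of the next 900. By total reads the counts were 58 higher and 0 lower in air and 46 higher and 0 lower in water, so 100% of calls were higher in place of 39.5% and 53.6%. In both kinds of heat 11 of the 15 higher loci were broad. None of the lower loci was broad: 19 of 23 in air and 13 of 13 in water were sharp.

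Bradi1g66470.1, ranked 54, had 0 reads in the unstressed library, 28 under salt, 16 and 34 in cold, 3037 and 5047 under heat in air, and 1303 and 1994 under heat in water. Heat in air gave 200-fold and 257-fold, and heat in water 227-fold and 156-fold, the unstressed level when 3 counts are put in the unstressed library. Bradi5g02040.1 gave 179-fold and 184-fold in air and 229-fold and 148-fold in water with the same 3 counts. Its lower interval ends at the weaker time were 146-fold in air and 120-fold in water. Of the lower loci, Bradi2g27400.1 (99.5% at 15 nt) was lower under heat in air by 6.41-fold (6.13 to 6.71) at 1 h and 43.6-fold (40.2 to 47.5) at 3 h. Bradi1g12700.1, led by 24 nt, was lower under heat in water by 10.4-fold (8.93 to 12.1) at 1 h and 7.21-fold (6.54 to 7.95) at 3 h. By share of the library these were 0.117% unstressed against 0.0731% and 0.0159% for the first, and 0.0303% against 0.0105% and 0.0188% for the second.

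Salt was sampled at 48 h only. Of the 90 loci 10 were called higher and 31 lower, against 4.2% and 3.45% of all tested and 4.44% and 14.8% of the next 900. By total reads 70 were higher and 2 lower, or 97.2% higher in place of 24.4%. Bradi5g02210.1 was 126-fold lower in scaled reads (97.0 to 168), with 2196 unstressed reads and 56 under salt. All 9 of its counts of 10 or more were even, so its interval is too narrow if reads were counted more than once. It was also low after 1 h of heat in water, at 50 reads, and higher at 3 h, at 1686. Bradi2g27400.1 was 24.9-fold lower (22.8 to 27.2). Bradi5g13170.1 was 11.1-fold higher (7.84 to 16.3) and Bradi1g66590.2, with 6 unstressed and 228 salt reads, 11.8-fold higher (5.33 to 32.5).

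The loci led by 15 nt need a caution about size, because 15 nt is the lower edge of the range selected for sequencing. Shorter fragments were not measured. Bradi1g15900.1, Bradi2g27400.1, Bradi5g02210.1 and Bradi5g03300.1 had 94.5% to 99.7% of their reads at 15 nt. By share they peaked in different libraries. Bradi1g15900.1 was highest after 1 h of heat in air at 0.766%, Bradi2g27400.1 after 6 h of cold at 0.166%, Bradi5g02210.1 after 3 h of heat in air at 0.0623% and Bradi5g03300.1 after 3 h of heat in water at 0.0946%. By TMM-scaled reads the first 3 were all highest in the unstressed library, which held 51.5%, 55.2% and 64.2% of their scaled reads, and Bradi5g03300.1 again after 3 h of heat in water. At the other end of the range, 69.9% of reads at Bradi3g56930.2 were 35 nt. That locus had 8133 reads in the unstressed library, 4462 under salt, 41426 and 25831 in cold, 14272 and 8242 under heat in air, and 3002 and 4159 under heat in water. Both cold libraries were highest by share, at 0.991% and 1.03% against 0.1201% to 0.309% elsewhere. After TMM scaling the unstressed level, 8133, was above both cold levels, 6182 and 4096.

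The commonest length itself was stable at most sharp loci. Of the 78 loci with at least 50 reads in every library, 42 had a single commonest length in all 8, or 53.8%, against 66.0% of the 527 such loci ranked among the next 900. All 42 were among the 45 sharp loci. Length shares had counting intervals no wider than 3.06 points either side where a locus had 1000 or more reads in a library, and no wider than 12.1 points with 50 or more.

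At some intermediate and broad loci the profile changed between libraries. Bradi3g49670.3 was mostly 20 nt in the unstressed library, at 69.9% (65.9 to 73.7). Its 20 nt share was 21.9% under salt, 11.1% and 19.5% in cold, 17.7% and 14.2% under heat in air, and 25.2% and 10.9% under heat in water. All 7 stressed libraries were lower, and in 5 of them the commonest length was 16 nt, at 23.2% to 37.8%. The 2 identifiers of Bradi2g33680, which had identical counts, were 45.6% (37.5 to 54.0) and 42.7% (34.1 to 51.7) 24 nt in cold and 3.20% to 11.4% 24 nt in the heat libraries. In cold these were shares of only 149 and 131 reads, against 616 to 3121 under heat. Bradi1g03900.1, the locus high in cold, was led by 25 nt at 6 h (43.6%, 42.4 to 44.8) and by 18 nt at 24 h (51.2%, 50.2 to 52.2).

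Other loci moved between 21 nt and another length. At Bradi4g10030.1 the 21 nt share was 29.96% in the unstressed library, 38.5% under salt, 52.8% and 54.2% in cold, 30.9% and 40.9% under heat in air, and 37.7% and 19.4% under heat in water. The 15 nt share ran the other way, from 21.04% after 24 h of cold to 53.5% after 3 h of heat in water. The 21 nt share was highest in cold and lowest after 3 h of heat in water. At Bradi4g26370.2 the ratio of 24 nt over 21 nt was 2.53 without stress, 2.50 under salt, 0.975 and 1.196 in cold, 2.095 and 1.69 under heat in air, and 2.83 and 0.633 under heat in water. The 2 heat in water libraries differed most, with intervals of 2.18 to 3.72 at 1 h and 0.554 to 0.723 at 3 h. At Bradi3g55810.2 the commonest length was 29 nt in 6 libraries and 30 nt under salt and after 1 h of heat in water. Its 29 nt share was 14.1% and 24.6% in those and 40.0% to 55.0% in the others.

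**Figure D4:**
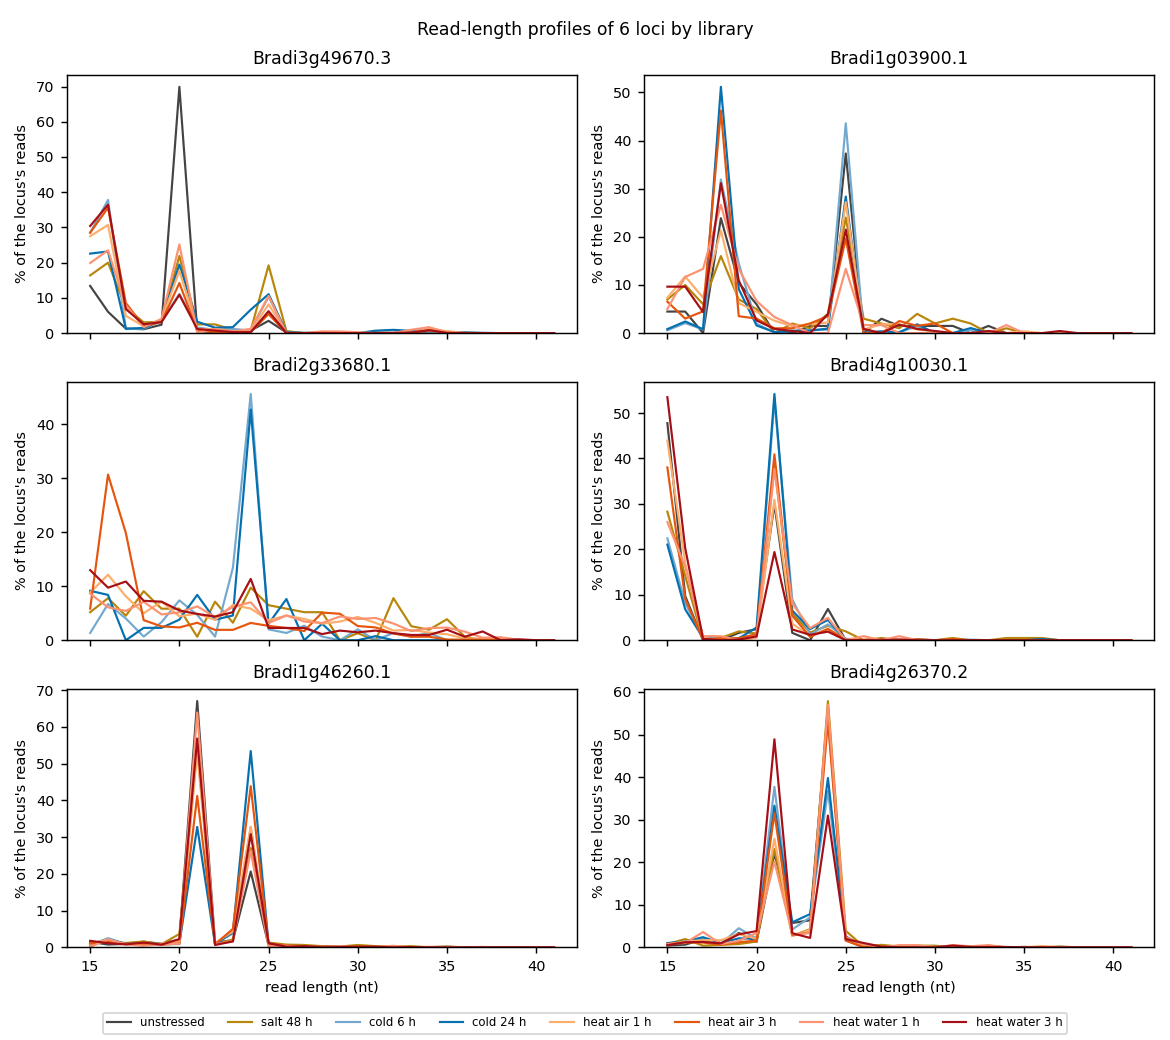
Percent of a locus's reads (vertical) at each read length in nt (horizontal) for 6 loci, 1 line per library with 50 or more reads. Bradi3g49670.3 peaks at 20 nt in the unstressed library, Bradi2g33680.1 at 24 nt in the cold libraries, and Bradi1g46260.1 and Bradi4g26370.2 trade 21 nt against 24 nt reads.

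Transcript identifiers of Bradi1g46260 differed in their mix of 21 nt and 24 nt reads. Every count of Bradi1g46260.2 was at or below the matching count of Bradi1g46260.1. The excess of Bradi1g46260.1 over Bradi1g46260.2 was 141 unstressed reads, 282 under salt, 880 and 834 in cold, 494 and 774 under heat in air, and 174 and 399 under heat in water. Of these extra reads 48.6% to 78.3% were 24 nt, whereas Bradi1g46260.2 was 62.4% to 87.3% 21 nt and 8.27% to 29.1% 24 nt. Bradi1g68310.1, of another gene, had 338 unstressed 21 nt reads, as did Bradi1g46260.2. After 6 h of cold they had 1373 and 1358, and after 1 h of heat in air 766 and 764. Under heat in water they had 455 and 448, then 684 and 681. They differed more under salt (800 and 496) and after 24 h of cold (716 and 486). After 3 h of heat in air they had 1003 and 836. Whether these reads are shared was not tested. At Bradi1g46260.1 the ratio of 24 nt over 21 nt was 0.308 (0.246 to 0.383) without stress and 1.63 (1.46 to 1.82) after 24 h of cold. After 6 h of cold it was 0.598, after 3 h of heat in air 1.06, and in the other 4 stressed libraries 0.410 to 0.619.

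Many identifiers shared reads, so the 90 are fewer independent loci than their number. Near-identical counts, with at least 90% of the larger total matched over every library and length, put 44 of the 90 into 18 groups. Counting each group once leaves 64 units, with 7.74% of all reads in place of 10.1%. In 14 groups the identifiers belonged to 1 gene, such as the 5 of Bradi1g46530 and the 4 of Bradi4g26370. The other 4 groups crossed genes. Bradi3g09010.1 and Bradi3g09010.2, identical at 82026 reads, matched Bradi2g08030.1 to 97.3%. Bradi1g56030.1 and Bradi1g78080.1 matched to 97.0%, Bradi2g38910.1 and Bradi4g06520.1 to 95.6%, and Bradi2g13090.1 and Bradi5g05670.1 to 90.4%. At this limit the remaining 46 loci were in no group. With a limit of 80% of the larger total, 63 of the 90 fell into 21 groups. With 95%, 42 fell into 17 groups.

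Some loci had nearly proportional counts. When pairs with a cosine of at least 0.99 between counts over libraries and lengths were linked and linked pairs joined, 56 loci fell into 22 groups, 9 of which crossed genes. Bradi3g53300.1 had 2.05 times the reads of Bradi2g08030.1, and Bradi3g55810.2 had 1.99 times those of Bradi3g55810.1, Bradi3g55810.3 and Bradi3g55810.4. Bradi4g19720.1 had 1.76 times the reads of Bradi3g18420.1. Counts that were nearly all even numbers marked 8 of the 87 loci with at least 20 counts of 10 or more, or 9.20%, against 6.05% of the 1223 such loci in the files. At Bradi3g53300.1 99.5% of such counts were even, and at Bradi5g09700.1, Bradi5g05660.1, Bradi5g23690.1 and Bradi5g13170.1 100%. Bradi5g02210.1 had only 9 such counts and so is not among the 8, but 100% of them were even. How reads with several places were counted is not given in the sources used here, and halving all counts is among the alternatives tried.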

How the data were processed

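Small RNA reads at 3' UTRs were analysed in 8 libraries, 1 per condition. Per the file headers the deposited values are raw counts, 1 for each transcript identifier and read length, and all were whole numbers. The submitters' processing notes list CASAVA, Bowtie 0.12.7 and bedtools 2.10.0 but not what each did. Not given in the sources used here: the genome build, annotation, strand and handling of reads with several places. Which of the 2 library kits in the labels' protocols made each library is not stated there. Header names are shifted against the data, so the length was read from the column running from 15 to 41. The totals cover 3' UTR reads alone and are not sequencing depth.

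Counts were summed over lengths and libraries, identifiers ranked, and ranks 11 to 100 kept. The loci, rules and classes were chosen with earlier results of these data known. Libraries were scaled to the unstressed one with trimmed means of log ratios (TMM; 30% of log ratios and 5% of mean levels trimmed) over 18191 loci with 40 or more reads, a filter that 90 of the 90 passed. The factors were 1.92 to 6.70 in the stressed libraries, or 3.59 to 9.20 times the ratio of totals. They were computed in Python 3.11.15 (numpy 2.4.6, pandas 2.3.3, scipy 1.17.1, networkx 3.6.1) and checked to equal those of edgeR 4.0.16 in R 4.3.3. Ratios of 2 libraries have exact conditional (Clopper-Pearson) 95% intervals, and calls needed the whole interval beyond 2-fold. Against 0 reads a floor of 3 counts was used. The interval calculation was tested on simulated data. Intervals cover counting error only, since amplified reads are not independent molecules. The floor is a fixed setting and not a confidence limit. No p-values are given.

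Loci named in the text were those with the highest shares, ranks beside the boundaries, members of near-identical groups, the highest of each commonest length, up to 2 per direction and comparison, and those with the most or least even levels or the most variable length profiles. Bradi1g46260, Bradi4g26370, Bradi5g03300.1 and the loci with even counts were singled out after their values were seen. None of the 66 genes (0) was among the 31335 in RefSeq's table of assembly Brachypodium_distachyon_v3.0, so no names, coordinates or sequences are printed. Alternatives were other scalings, a 4-fold limit, reads of 20 to 24 nt, other limits for shared reads and lengths, other rankings and, chosen after seeing the even counts, counts halved.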

Additional observations from a re-analysis of the deposited data

How the results depend on the processing

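Leaving the 10 most abundant loci out of the totals changed the share of the 90 loci to 46.4% unstressed, 30.9% under salt, 22.3% and 21.295% in cold, 30.8% and 27.0% under heat in air, and 33.5% and 31.2% under heat in water. With 1 identifier per gene it was 3.63%, 13.6%, 7.11%, 10.8%, 8.19%, 9.84%, 7.55% and 8.94% in the same order. Scaled by total reads, loci against unstressed were 56 higher and 2 lower under cold, 58 and 0 under heat in air, 46 and 0 under heat in water, and 70 and 2 under salt, and 6 were higher under heat than under cold and salt. With a 4-fold limit cold gave 1 higher and 9 lower, heat in air 7 lower, heat in water 8 lower, salt 3 higher and 14 lower, and heat against cold and salt 6. With reads of 20 to 24 nt alone, cold gave 1 higher, heat in air 15 lower, heat in water 6 lower, and salt 2 higher and 19 lower. Median-of-ratios scaling, totals outside the 100 most abundant loci and halved counts kept each of these call counts within 1.5 times, as did no filter for those against unstressed, the comparisons in which it was tried. Leaving out a replicate was not possible with 1 library per condition. No paired analysis was possible because each condition has 1 library. Depth limits the length shares at loci with few reads in a library, such as the 11 higher under heat in cold.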
